A study of Mus musculus with 17 samples.

Results

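A set of 8 osteoclast and multinucleated giant cell genes was examined, out of 54658 genes in the deposited expression table: Tnfrsf11a, Oscar, Nfatc1, Dcstamp, Ocstamp, Tm4sf19, Acp5 and Myh15. They were found by their symbols, and all 8 were in the table. The set was chosen by measured values, namely the levels of these genes in leptin knockout and wildtype implants, so the difference between KO and WT implants is given as a description, with no test.

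Osteoclasts and multinucleated giant cells are large cells that form when cells of the monocyte and macrophage lineage fuse. The cytokine RANKL, bound by the receptor RANK, together with signals through immunoreceptor adaptor proteins, induces the transcription factor NFATc1, which drives genes for cell fusion and for the dissolution of bone. Similar giant cells form around foreign material and in inflamed tissue, and macrophages of fat are known to fuse there as well.

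RNA was sequenced from 16 mouse libraries, 2 for each of 8 group codes. Mice of a host type labelled LD, a name that the labels do not expand, were injected with mouse embryonic fibroblasts (MEF) beneath the chest skin at 3 to 5 weeks of age, and these cells grew into a tissue like fat. The knee surgery of the study, destabilization of the medial meniscus, was done at 16 weeks and the mice were killed at 28 weeks. KO implants, from leptin knockout donors, carry the codes MKM (male, surgery) and MKF (female, surgery). WT implants, from wildtype donors, carry the codes MWM (male, surgery) and MWF (female, surgery). Endogenous visceral fat carries the codes EVM (surgery), EVFN (no surgery) and EVFY (labelled Vis, with the rest of its code unexplained). Endogenous subcutaneous fat is represented by ESM (male, surgery), and the sample coded ESF is not analysed here. The design text calls the hosts male, so whether male and female describe the host or the donor is not given. Whether the endogenous fat came from LD hosts or from other mice is not stated in the sources used here.

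Totals were 16444965 to 25805502 reads per library, so that 1 read was worth 0.0388 to 0.0608 CPM (reads per 1000000 reads of the library). The tissue is labelled as ganglia. The summed level of 8 adipocyte markers was 11034 to 35089 CPM over 14 libraries, against 3.72 to 52.1 CPM for 8 sensory neuron markers. Leptin itself (Lep), the gene knocked out in the donors, ranged over 1045 to 1726 CPM among all 4 KO implants and 806 to 2675 CPM among the 4 WT implants, and since the labels do not give the allele, the transcript level does not check the genotype. Libraries MKM1 and EVFN1 stood apart from their labels: the sum of 5 mesothelial markers, genes of the lining of visceral organs, was 436 CPM in MKM1 and 1.93 to 21.6 CPM in the other 3 KO implants, and it was 2.49 CPM in EVFN1 and 172 to 466 CPM in the other 5 visceral libraries. Both are shown singly and stay out of every mean, range and test unless a sentence says otherwise, which leaves 3 KO implants, 4 WT implants, 5 visceral and 2 subcutaneous libraries, with MKM and EVFN at 1 library each.

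The promoters of Tnfrsf11a, Tm4sf19, Myh15 and Acp5 are shown because the first 3 of these genes were high in the same libraries while Acp5 was not. RefSeq windows from 250 bases before to 50 bases after a start (GRCm38.p6) were found for 5 of the 8 genes. The windows are Tnfrsf11a chr1:105780473-105780772 (plus strand), Tm4sf19 chr16:32400256-32400555 (plus), Myh15 chr16:49057150-49057449 (plus) and the third of 3 Acp5 windows, chr9:22130549-22130848 (minus), each written 5' to 3' along its gene with capitals at motif matches.
Tnfrsf11a promoter: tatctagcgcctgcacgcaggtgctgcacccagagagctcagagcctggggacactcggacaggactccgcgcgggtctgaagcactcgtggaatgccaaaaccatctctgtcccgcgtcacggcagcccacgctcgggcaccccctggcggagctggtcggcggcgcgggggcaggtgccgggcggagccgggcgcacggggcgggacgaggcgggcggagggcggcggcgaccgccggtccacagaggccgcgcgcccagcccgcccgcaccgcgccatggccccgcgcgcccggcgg
Tm4sf19 promoter: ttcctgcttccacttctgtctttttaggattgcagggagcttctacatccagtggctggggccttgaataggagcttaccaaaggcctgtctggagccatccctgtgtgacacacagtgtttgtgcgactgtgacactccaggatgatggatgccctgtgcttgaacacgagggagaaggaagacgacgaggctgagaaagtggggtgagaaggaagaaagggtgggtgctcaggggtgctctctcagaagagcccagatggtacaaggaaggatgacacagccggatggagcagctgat
Myh15 promoter: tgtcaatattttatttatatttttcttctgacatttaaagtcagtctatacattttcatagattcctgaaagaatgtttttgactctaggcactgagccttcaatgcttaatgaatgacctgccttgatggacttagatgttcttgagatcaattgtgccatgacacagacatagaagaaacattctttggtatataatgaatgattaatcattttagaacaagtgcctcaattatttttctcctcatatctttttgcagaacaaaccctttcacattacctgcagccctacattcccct
Acp5 promoter: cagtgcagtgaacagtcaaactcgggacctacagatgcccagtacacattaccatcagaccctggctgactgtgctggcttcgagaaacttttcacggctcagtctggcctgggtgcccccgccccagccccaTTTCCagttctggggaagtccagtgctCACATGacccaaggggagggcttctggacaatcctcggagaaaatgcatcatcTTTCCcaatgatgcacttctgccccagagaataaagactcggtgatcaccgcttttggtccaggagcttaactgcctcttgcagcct
Motifs searched on both strands were TGANTCA (the AP-1 site), CATGTG and CACGTG (E-boxes bound by MITF and TFE factors), GAGGAA (the PU.1 core) and GGAAA (the NFAT core, which can overlap GAGGAA). Of 32851 RefSeq promoter windows, 7.81% held TGANTCA, 14.2% CATGTG, 7.15% CACGTG, 28.3% GAGGAA and 61.3% GGAAA. The Tnfrsf11a, Tm4sf19 and Myh15 windows held none of these letters. The Acp5 window held CATGTG with its first base at -90 from the start and GGAAA at -117 and -37, read from the opposite strand. This is the Acp5 window with the most matches. The other 2 Acp5 windows held 1 GGAAA each and none of the other motifs, and the Oscar window held 1 CATGTG, 2 GAGGAA and 4 GGAAA. These matches describe letters in a window and not binding.

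Of the 8 genes, 4 were higher in each of the 3 KO implants than in every other library: Tnfrsf11a, Dcstamp, Tm4sf19 and Myh15. Mean levels in KO implants over those in WT implants were 4.54-fold for Tnfrsf11a, 4.05-fold for Dcstamp, 14.2-fold for Tm4sf19 and 32.3-fold for Myh15. Ocstamp averaged 1.93-fold higher with overlapping libraries, and Nfatc1 and Acp5, the transcription factor and the enzyme best known from osteoclasts, were not higher. Over all 17871 genes that passed the filter of at least 1 CPM in at least 2 libraries, 1518 (8.49%) were above every other library in the 3 KO implants and 14.3% were above every WT implant. Since the list was drawn up on this contrast, nothing is read from its 4 of 8 beyond the levels themselves. In bulk tissue, fewer cells of a type and less RNA per cell cannot be told apart.

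**Figure D1:**
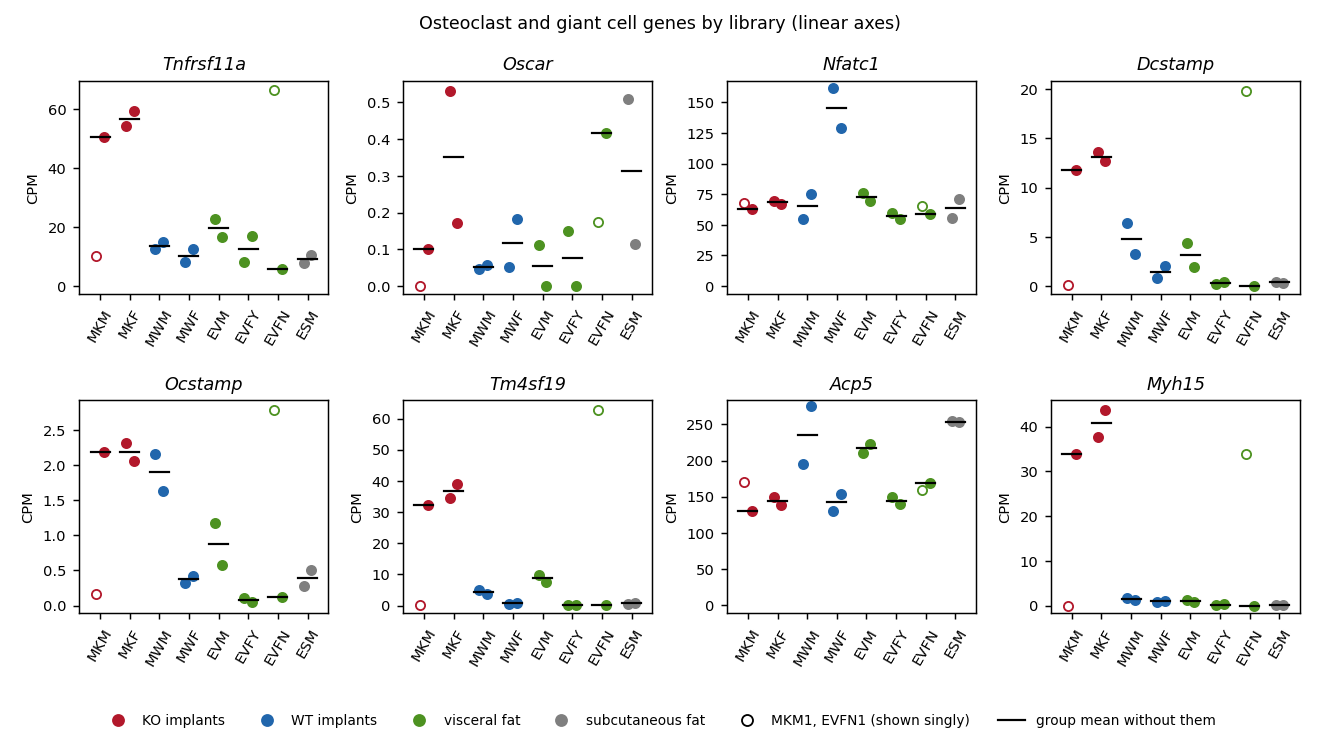
Levels of the 8 genes (CPM, linear axes starting near 0) in each library by group code, with points for libraries, open points for MKM1 and EVFN1 and bars for group means without these. Tnfrsf11a, Dcstamp, Tm4sf19 and Myh15 sit highest in the 3 KO implants and in the open EVFN1 point, while Acp5 is highest in ESM, MWM and EVM.

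Tnfrsf11a (chr1:105780718-105847981, plus strand, mm10) encodes RANK, the receptor for RANKL. It was at 50.4 (MKM2), 54.3 (MKF1) and 59.2 CPM (MKF2) in KO implants and at 12.5 (MWM1), 15.0 (MWM2), 8.08 (MWF1) and 12.6 CPM (MWF2) in WT implants. Visceral fat had 22.6 (EVM1), 16.8 (EVM2), 8.04 (EVFY1), 16.99 (EVFY2) and 5.88 CPM (EVFN2), and subcutaneous fat had 7.94 and 10.54 CPM. Every KO implant was above every other library, whereas the WT implant range lay within that of visceral fat. MKM1 had 10.1 CPM and EVFN1 had 66.4 CPM, the highest value of the 16 libraries. The means were 54.6 ± 4.41 CPM in KO implants (SD, n = 3), 12.0 ± 2.87 CPM in WT implants (n = 4), 14.1 ± 6.93 CPM in visceral fat (n = 5) and 9.24 ± 1.83 CPM in subcutaneous fat (n = 2). On the log2 scale KO over WT implants came to 2.14 (SE 0.27).

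Oscar (chr7:3609813-3616157, minus strand) encodes a collagen-binding receptor that gives osteoclast precursors a costimulatory signal through the adaptor FcRγ. KO implants had 17 reads of it in all, WT implants 6, visceral fat 12 and subcutaneous fat 11. Its highest level was 0.531 CPM in MKF1, next to 0.102 in MKM2 and 0.172 CPM in MKF2, and WT implants lay between 0.0470 and 0.182 CPM. Visceral fat ranged from 0 to 0.416 CPM and subcutaneous fat had 0.511 and 0.114 CPM, so all sides overlapped. The gene did not pass the filter on low values and was not tested; intervals and floors of read counts cover counting error only.

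Nfatc1 (chr18:80606205-80713071, minus strand) encodes the transcription factor at the centre of the osteoclast program, which T cells, B cells and other cell types also use. It was at 63.2, 69.9 and 67.1 CPM in KO implants (MKM2, MKF1, MKF2), a narrow range. In WT implants it was at 54.8 (MWM1), 75.5 (MWM2), 162 (MWF1) and 129 CPM (MWF2), so that MWM2 and both MWF libraries stood above every KO implant. Visceral fat lay at 54.4 to 76.4 CPM (median 59.8) and subcutaneous fat at 55.8 and 71.2 CPM. MKM1 had 67.7 CPM and EVFN1 had 65.3 CPM, both within those ranges. The log2 fold change of KO over WT implants was -0.55 (SE 0.15), and among the 7 genes of the set that passed the filter Nfatc1 and Acp5 were the ones with a negative value.

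Dcstamp (chr15:39745930-39760938, plus strand) and Ocstamp (chr2:165393760-165400405, minus strand) encode multipass membrane proteins that osteoclasts and giant cells need in order to fuse in mice. Dcstamp was at 11.8 (MKM2), 13.6 (MKF1) and 12.7 CPM (MKF2) in KO implants and at 6.39 (MWM1), 3.28 (MWM2), 0.797 (MWF1) and 2.07 CPM (MWF2) in WT implants. Visceral fat had 4.35 and 1.94 CPM in EVM but 0.201, 0.439 and 0.0594 CPM in EVFY1, EVFY2 and EVFN2, and subcutaneous fat had 0.454 and 0.342 CPM. Dcstamp thus had a middle level in male WT implants and EVM and was under 0.5 CPM in the other fat groups. MKM1 had 0.1102 CPM, or 2 reads, and EVFN1 had 19.8 CPM. The log2 fold change of KO over WT implants was 2.09 (SE 0.36).

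Ocstamp had 2.19, 2.32 and 2.06 CPM in KO implants (MKM2, MKF1, MKF2). WT implants had 2.16 and 1.64 CPM in MWM and 0.319 and 0.426 CPM in MWF, so MWM1 lay within the KO range and both MWF libraries below it. Visceral fat had 1.17 and 0.581 CPM in EVM and 0.0548 to 0.119 CPM in EVFY and EVFN2, and subcutaneous fat had 0.284 and 0.513 CPM. The log2 fold change of KO over WT implants was 0.90 (SE 0.23). MKM1 had 0.165 CPM and EVFN1 had 2.78 CPM.

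Tm4sf19 (chr16:32400506-32408227, plus strand) encodes a tetraspan membrane protein known from osteoclasts. It was at 32.4 (MKM2), 34.5 (MKF1) and 39.1 CPM (MKF2) in KO implants and at 4.93 (MWM1), 3.56 (MWM2), 0.638 (MWF1) and 0.851 CPM (MWF2) in WT implants. Visceral fat had 9.77 and 7.71 CPM in EVM, above every WT implant, and 0.0503, 0.164 and 0.0594 CPM in EVFY1, EVFY2 and EVFN2. Subcutaneous fat had 0.567 and 0.740 CPM. The order of group means was MKF, MKM, EVM, MWM, MWF, ESM, EVFY and EVFN, and the neighbours MWF and ESM, and EVFY and EVFN, overlapped. MKM1 had 0.1102 CPM and EVFN1 had 62.7 CPM. The log2 fold change of KO over WT implants was 3.86 (SE 0.20).

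Acp5 (chr9:22126727-22135711, minus strand) encodes tartrate-resistant acid phosphatase, the enzyme whose stain marks osteoclasts and which macrophages also make. It was at 129.98 (MKM2), 150.0 (MKF1) and 139 CPM (MKF2) in KO implants and at 195 (MWM1), 276 (MWM2), 131 (MWF1) and 153 CPM (MWF2) in WT implants. Visceral fat had 140.4 to 223 CPM (median 169) and subcutaneous fat had 254 and 253 CPM. Every KO implant was below both subcutaneous libraries, as in 18.8% of all genes, and the KO implants overlapped with the MWF and visceral libraries. MKM1 had 169.8 CPM and EVFN1 had 159 CPM, both between the lowest and the highest visceral library. KO over WT implants gave a log2 fold change of -0.40 (SE 0.13). The antisense gene 6530413G14Rik shares 137 exonic bases with Acp5 and was at most 0.223 CPM in any library; the strand setting of the counting is not given in the sources used here.

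Myh15 (chr16:49057486-49199104, plus strand) encodes a class II myosin heavy chain, a family best known as the motor of muscle. It was at 34.0 (MKM2), 37.8 (MKF1) and 43.7 CPM (MKF2) in KO implants and at 1.74 (MWM1), 1.19 (MWM2), 0.744 (MWF1) and 1.09 CPM (MWF2) in WT implants. Visceral fat ranged from 0 to 1.23 CPM, with 0 in EVFN2, and each subcutaneous library had 1 read. Against subcutaneous fat the pooled level was 682-fold higher in KO implants, from 2468 reads and 2 reads, with a 95% counting interval of 189 to 5638. EVFN1 had 34.0 CPM and MKM1 had 0 reads. The log2 fold change of KO over WT implants was 4.51 (SE 0.23). The sum of 7 skeletal muscle markers did not follow this order, with 73.7 to 2152 CPM in KO implants, 2662 to 36089 CPM in WT implants, 46.5 to 800.3 CPM in visceral fat and 134 to 14790 CPM in subcutaneous fat.

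With all 16 libraries grouped as labelled, the log2 fold changes of KO over WT implants were 1.57 for Tnfrsf11a, 1.00 for Dcstamp, 0.40 for Ocstamp, 2.42 for Tm4sf19, 2.98 for Myh15, -0.52 for Nfatc1 and -0.31 for Acp5. MKM1 lay inside the visceral fat range for 8 of 8 genes and inside the KO implant range for 1 of 8. EVFN1 lay inside the KO implant range for 2 of 8 genes and inside the visceral range for 3 of 8. EVFN1 exceeded every KO implant for Tnfrsf11a, Dcstamp, Ocstamp, Acp5 and Tm4sf19.

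Per kilobase of exon, which allows levels of different genes to be set side by side, Acp5 led in KO implants with 68.8 CPM per kb, followed by Tm4sf19 with 28.1, Tnfrsf11a with 9.12, Nfatc1 with 8.93, Myh15 with 6.07, Dcstamp with 4.76, Ocstamp with 0.599 and Oscar with 0.145 CPM per kb. In WT implants the order on the same scale was Acp5 with 93.0, Nfatc1 with 14.1, Tnfrsf11a with 2.01, Tm4sf19 with 1.98, Dcstamp with 1.18, Ocstamp with 0.311, Myh15 with 0.188 and Oscar with 0.0459 CPM per kb. Tm4sf19 and Myh15 each stood 2 places higher in the order of KO implants than in that of WT implants, Nfatc1 stood 2 places lower, and Acp5 was at the top of both.

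Across the 16 libraries (log2(CPM + 0.5), points that share depth and group), Tnfrsf11a, Dcstamp, Ocstamp, Tm4sf19 and Myh15 varied together, with Pearson r between 0.808 (Tnfrsf11a and Ocstamp) and 0.962 (Dcstamp and Tm4sf19). Acp5 had r of -0.44 with Myh15 and -0.34 with Tnfrsf11a. Nfatc1 had r between -0.22 and -0.03 with the 6 other filtered genes, and Oscar, which is sparse, had r between -0.15 and 0.20 with the rest. The genes outside the set with the highest r to the mean of its standardized values were Hs6st1 (0.973), Gltp (0.963), Rad23b (0.962), S100a4 (0.958), Dot1l (0.957), Nars (0.957), Ostf1 (0.956), Adam8 (0.955), Txnrd1 (0.954) and Tmem9b (0.953), each over 16 libraries.

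Macrophages are the cells that fuse into giant cells, and their markers were higher in KO implants too. The sum of 10 macrophage markers was 3270 to 4095 CPM in KO implants, 1001 to 1294 CPM in WT implants, 866 to 1717 CPM in visceral fat and 865 to 1161 CPM in subcutaneous fat, and it was 1251 CPM in MKM1 and 4103 CPM in EVFN1. Of the 10 markers, 8 were higher in KO than in WT implants (limma, adjusted p under 0.05; 3 with all 16 libraries) and 0 were lower, beside 6.67% higher and 4.10% lower of all genes (0.685% and 1.04% with all 16 libraries). Per 1000 CPM of these markers, Tnfrsf11a was at 14.4 to 15.4 CPM in KO implants, 7.42 to 14.9 CPM in WT implants and 6.80 to 15.9 CPM in visceral fat, so the ranges overlapped. Scaled in the same way, Tm4sf19 was at 9.56 to 9.90 CPM in KO implants, 0.586 to 3.81 CPM in WT implants and 0.0558 to 5.69 CPM in visceral fat, without overlap. Myh15 was at 10.4 to 10.8 CPM in KO implants, against 0.683 to 1.34 CPM in WT implants and at most 0.715 CPM in visceral fat. Dcstamp was at 3.09 to 3.86 CPM in KO implants, inside the 0.732 to 4.94 CPM of WT implants, and Ocstamp at 0.503 to 0.670 CPM in KO implants, inside the 0.293 to 1.67 CPM of WT implants. Acp5 and Nfatc1, whose KO and WT implants overlapped in CPM, were lower in KO implants on this scale. The divisor was higher in KO implants, so a gene with unchanged CPM comes out lower there, and no opposite response is read from this. Acp5 had 33.9 to 42.7 CPM in KO implants and 120.1 to 275 CPM in WT implants. Nfatc1 had 16.4 to 19.9 CPM in KO implants and 42.3 to 149 CPM in WT implants. What part the macrophage level has in these differences was not tested.

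**Figure D2:**
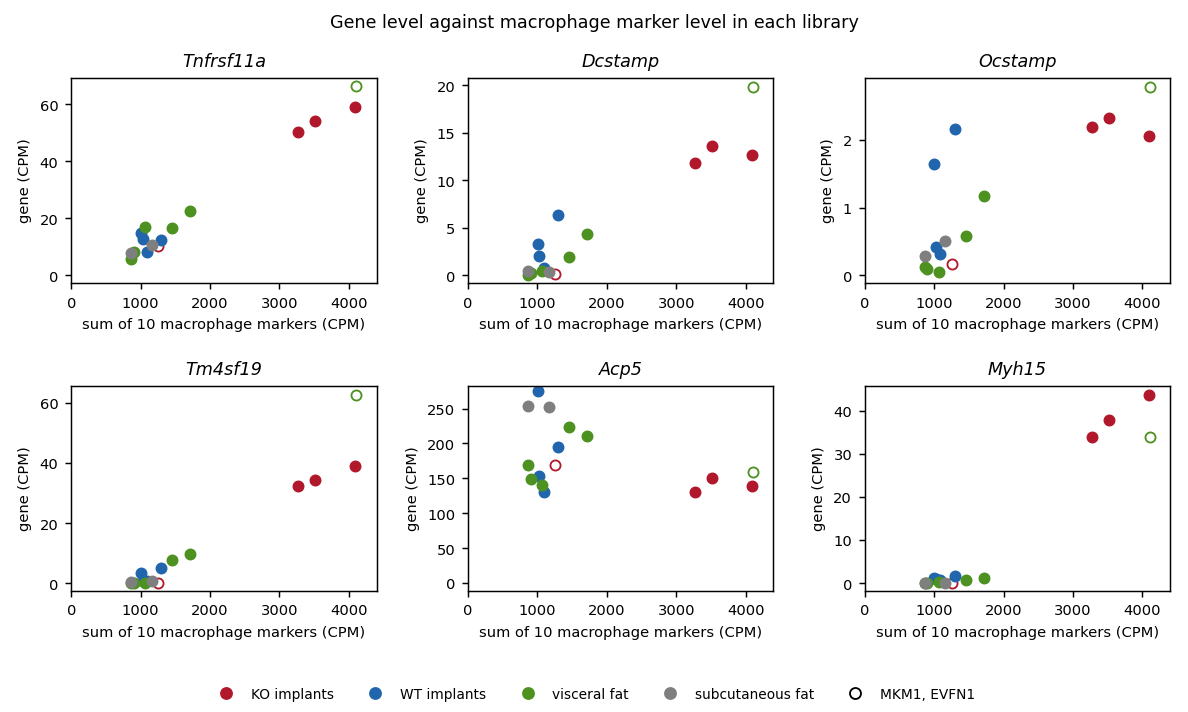
Levels of Tnfrsf11a, Dcstamp, Ocstamp, Tm4sf19, Acp5 and Myh15 (CPM) against the summed level of 10 macrophage markers (CPM) in each library. Colours mark sides, and open points mark MKM1 and EVFN1. The 3 KO implants and EVFN1 lie between 3270 and 4103 CPM of markers, and there Tm4sf19 and Myh15 are high while Acp5 is not.

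Comparisons without a KO library are other contrasts than the one the set was chosen on, but they share the WT implant libraries with it, so their tests are not independent of that choice. WT implants had higher levels than visceral fat for 5 of the 7 genes that passed the filter, and 0 were lower (limma on log2(CPM + 0.5), Benjamini-Hochberg over all 17871 genes). Over all genes, 15.9% were higher and 6.50% lower in this comparison (2849 and 1162 genes; 2456 and 1854 with median-of-ratios scaling), with a median log2 fold change of 0.11. Separate animals are not stated for the 2 libraries of a code, and the p-values therefore describe the spread among libraries, which may be technical. Both WT implant groups had surgery while visceral fat included EVFN without it, so tissue is mixed with surgery here. The log2 fold changes were 1.40 for Dcstamp (SE 0.31, adjusted p = 0.016), 1.02 for Myh15 (SE 0.20, adjusted p = 0.00893), 0.88 for Ocstamp (SE 0.20, adjusted p = 0.018), 0.73 for Tm4sf19 (SE 0.18, adjusted p = 0.0222) and 0.62 for Nfatc1 (SE 0.13, adjusted p = 0.0123). Tnfrsf11a (0.08, SE 0.24, adjusted p = 0.828) and Acp5 (0.06, SE 0.12, adjusted p = 0.758) did not pass. The groups overlapped for all 5 called genes, and mean Tm4sf19 was 2.49 CPM in WT implants and 3.55 CPM in visceral fat although its fold on the log scale is positive. Nfatc1 was above the visceral range of 54.4 to 76.4 CPM only in MWF1 (162 CPM) and MWF2 (129 CPM). Both MWM libraries (54.8 and 75.5 CPM) lay inside that range. Without EVFN2, Dcstamp, Myh15 and Tm4sf19 no longer passed, with a fold of 0.03 for Tm4sf19, and Dcstamp, Ocstamp and Tm4sf19 did not pass without MWM1, nor Ocstamp and Tm4sf19 without MWF2 (adjusted p over these fits 0.0511 to 0.916). With all 16 libraries as labelled, where 8.03% of all genes were higher and 1.63% lower, Nfatc1 alone passed, and with a pseudocount of 2 the fold of Tm4sf19 was 0.20 (adjusted p = 0.266).

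Markers of other cells differed between the same groups (limma, adjusted p under 0.05), beside 15.9% higher and 6.50% lower of all genes. Adipocyte markers were lower in WT implants than in visceral fat for 6 of 8 (sums of 11034 to 24185 CPM and 23611 to 35089 CPM), and mesothelial markers for 5 of 5 (14.9 to 39.3 CPM and 172 to 466 CPM). Sensory neuron markers were higher for 8 of 8 (39.0 to 52.1 CPM in WT implants and 3.72 to 8.28 CPM in visceral fat), lymphocyte markers for 5 of 8 (9.54 to 814 CPM and 7.52 to 31.6 CPM) and skeletal muscle markers for 3 of 7 (2662 to 36089 CPM and 46.5 to 800.3 CPM). The lymphocyte list was chosen after the values were seen, so its count is a description. Its sums in MWM (9.54 and 29.5 CPM) lay inside the visceral range, and only MWF was above it. Of 10 macrophage markers 1 was higher and 2 were lower, and of 4 tested osteoblast and bone markers 3 were higher. The bone markers Dmp1 and Phex and the neuron markers Nefl and Scn10a passed the filter on low values only through WT implants. The counts include these genes, and their calls are not read as tests. With all 16 libraries as labelled (8.03% higher and 1.63% lower of all genes), 0 adipocyte, 1 mesothelial and 1 macrophage marker were lower. Sensory neuron and lymphocyte markers were then higher for 7 of 8 each, skeletal muscle markers for 3 of 7 and bone markers for 1. In edgeR 1 skeletal muscle marker was higher. The part of these cells in the members' differences was not tested.

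WT implants were higher than subcutaneous fat for 4 of the 7 genes and lower for 0, beside 8.57% higher and 1.82% lower of all genes (1532 and 326 genes; 1400 and 577 with median-of-ratios scaling, which moved the median log2 fold change to 0.03 from 0.14). ESM is coded male while WT implants held MWM and MWF, so tissue is mixed with male and female codes in this comparison. Dcstamp was higher by 1.77 on the log2 scale (SE 0.40, adjusted p = 0.0254), and its 4 WT implants were all above the 2 subcutaneous libraries, as were those of 19.2% of all genes. Myh15 was higher by 1.57 (SE 0.25, adjusted p = 0.00665), from 90 reads in WT implants and 2 reads in subcutaneous fat, a pooled ratio of 21.3 with a 95% counting interval of 5.73 to 179. Tm4sf19 was higher by 1.07 (SE 0.22, adjusted p = 0.0203) with overlap, since MWF1 was within the subcutaneous range. Mean Nfatc1 was 65.1 CPM in MWM and 63.5 CPM in ESM, and it was high only in MWF (145 CPM). Nfatc1 was higher by 0.61 (SE 0.16, adjusted p = 0.0491), which missed the threshold in 11 of 14 fits that left out 1 library and had an adjusted p of 0.143 in edgeR. Ocstamp (0.69, SE 0.26, adjusted p = 0.129), Tnfrsf11a (0.34, SE 0.30, adjusted p = 0.501) and Acp5 (-0.48, SE 0.15, adjusted p = 0.0745) did not pass, although Acp5 did with median-of-ratios scaling (-0.60, adjusted p = 0.0428) and without MWM2 (-0.61, adjusted p = 0.0314). The calls rest on few libraries: Dcstamp missed the threshold without ESM1, ESM2, MWM1 or MWF2 (adjusted p 0.0594 to 0.119), Tm4sf19 without ESM1, ESM2 or MWM1 (0.0603 to 0.137) and Myh15 without ESM1 (0.0585), and none of the 4 passed with all 16 libraries as labelled (2.20% of all genes higher, 0.273% lower).

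**Figure D3:**
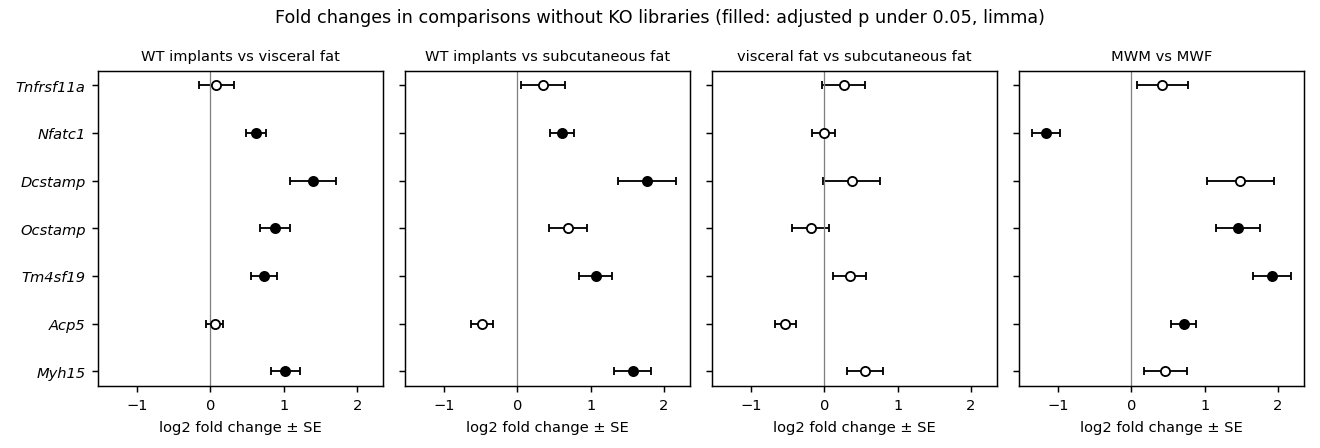
Log2 fold changes with SE (limma on log2(CPM + 0.5)) of the 7 genes that passed the filter in the comparisons without KO libraries, where filled points have an adjusted p under 0.05. Nfatc1, Dcstamp, Tm4sf19 and Myh15 are filled in both comparisons of WT implants with fat, no gene is filled between the fat depots, and Tm4sf19 has its largest value, 1.92, between MWM and MWF.

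Between the depots, visceral minus subcutaneous, 0 of the 7 genes passed in limma or in edgeR and 1, Acp5, had an unadjusted p under 0.05, beside 0.565% higher and 0.632% lower of all genes. The subcutaneous side was ESM alone (male, surgery), while the visceral side also held EVFY and EVFN (no surgery). Depot therefore cannot be told apart from these other differences between the groups. Acp5 came to -0.54 on the log2 scale (SE 0.14, adjusted p = 0.189), with all 5 visceral libraries below both subcutaneous ones, as in 4.06% of all genes. The visceral groups were not alike. Both EVM libraries exceeded EVFY1, EVFY2 and EVFN2 in Nfatc1, Dcstamp, Ocstamp, Tm4sf19, Acp5 and Myh15. This difference within visceral fat was seen in the values and was not tested. Over all genes, 16.1% had both EVM libraries above those 3. The macrophage marker sum was 1717 and 1457 CPM in EVM, against 900.4 CPM in EVFY1, 1069 CPM in EVFY2 and 866 CPM in EVFN2, and its part in these values was not tested.

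Within WT implants, male (MWM) over female (MWF), 3 of 7 genes were higher and 1 was lower, beside 1.47% higher and 12.3% lower of all genes (262 and 2198 genes; 819 and 1317 with median-of-ratios scaling). The median log2 fold change of all genes was -0.18, and 0.03 with that scaling. Tm4sf19 was higher in MWM by 1.92 on the log2 scale (SE 0.26, adjusted p = 0.00301), a call that was kept in 14 of 14 fits that left out 1 library. Ocstamp was higher by 1.45 (SE 0.30, adjusted p = 0.0159) and Acp5 by 0.71 (SE 0.17, adjusted p = 0.0276), while Nfatc1 was lower, at -1.16 (SE 0.19, adjusted p = 0.00648). The groups of these 4 genes did not overlap; over all genes, both MWM libraries were above both MWF libraries for 17.5% and below them for 43.9%. Dcstamp (1.48, SE 0.46, adjusted p = 0.0648; 1.66 and 0.0359 with median-of-ratios scaling), Myh15 (0.46, SE 0.29, adjusted p = 0.327) and Tnfrsf11a (0.42, SE 0.34, adjusted p = 0.470) did not pass. Ocstamp missed the threshold without any 1 of the 4 libraries compared (adjusted p 0.058 to 0.105), Acp5 without MWF1, MWF2 or MWM2 (0.0595 to 0.186) and Nfatc1 without MWM1 (0.051). With all 16 libraries as labelled, the shared spread takes in MKM1 and EVFN1, and 0.412% of all genes were higher and 8.85% lower. In that fit Ocstamp (adjusted p = 0.280) and Tm4sf19 (0.644) did not pass, while Nfatc1 (0.00433) and Acp5 (0.0384) did.

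Lymphocyte markers are given beside these values. The sum of 8 T and B cell markers, a list chosen after the values were seen, was 9.54 and 29.5 CPM in MWM and 814 and 608 CPM in MWF, against 11.1 to 137 CPM in KO implants, 7.52 to 31.6 CPM in visceral fat and 4.50 to 4.82 CPM in subcutaneous fat. Nfatc1 was highest in the MWF libraries, and the part of lymphocytes in its level was not tested.

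The KO difference in males minus that in females uses the KO libraries on which the set was chosen, so it is given as a description. It came to -2.10 on the log2 scale for Tm4sf19 (SE 0.41) and to 1.05 for Nfatc1 (SE 0.30). For the other filtered genes it was -1.63 (Dcstamp), -1.45 (Ocstamp), -0.86 (Acp5), -0.72 (Myh15) and -0.59 (Tnfrsf11a). The male side of this difference has 1 KO library, MKM2, which is assumed to vary like the other groups.

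Other genes of the same pathway, from lists whose members were chosen with earlier results of these data known, are given by counts between KO and WT implants. In this comparison 6.67% of all genes were higher and 4.10% lower, and the median log2 fold change was -0.06. Of 20 genes of RANK and CSF1 signalling, 9 were higher and 3 lower (median 0.62). Trem2, a receptor on lipid-handling macrophages that signals through Tyrobp, averaged 317 ± 24.3 CPM in KO implants and 25.4 ± 21.6 CPM in WT implants (SD, n = 3 and 4), or 3.96 on the log2 scale (SE 0.34, adjusted p = 0.000421). Siglec15, a sialic acid receptor of osteoclasts, averaged 9.21 ± 1.32 CPM in KO implants and 0.395 ± 0.371 CPM in WT implants (3.46, SE 0.26). Outside KO implants it reached 1 CPM only in EVM1 among the libraries fitted, so it passed the filter on low values through KO implants and had to differ. The 9 higher genes include it. Tyrobp, the adaptor of both, was higher by 2.19 (SE 0.17) and Csf1r, the receptor for macrophage growth factor, by 1.78 (SE 0.14), each with an adjusted p of 0.000337. The ligands did not rise: Csf1 averaged 74.5 ± 14.7 CPM in KO implants and 75.5 ± 17.2 CPM in WT implants (-0.03, SE 0.23, adjusted p = 0.945). Tnfsf11, which encodes RANKL, had 0.305, 0.145 and 0.129 CPM in KO implants. WT implants had 0.141, 0.226, 1.97 and 2.49 CPM of Tnfsf11, high only in MWF1 and MWF2. The fit gave -0.93 (SE 0.20, limma adjusted p = 0.0201, edgeR 0.0743), past the threshold in 8 of 14 fits that left out 1 library. Tnfsf11 reached 1 CPM only in MWF1 and MWF2, so it passed the filter on low values through WT implants. Its call is therefore not read as a test, and the 3 lower genes include it. Tnfrsf11b, the decoy receptor for RANKL, did not pass (-0.99, SE 0.47, adjusted p = 0.206).

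Of 15 osteoclast transcription factors, 4 were higher and 1 lower (median 0.19), with Spi1 (PU.1) at 1.93 (SE 0.21, adjusted p = 0.000925), Mitf at 1.43 (SE 0.20, adjusted p = 0.00348), Tfe3 at 0.80 (SE 0.12, adjusted p = 0.00438) and Relb lower at -0.50 (SE 0.11, adjusted p = 0.0216). Of 10 negative regulators, 3 were higher and 0 lower (median 0.20). The inhibitory receptors Pirb (2.24, SE 0.16) and Lilrb4a (2.81, SE 0.33) were higher, with adjusted p of 0.000337 and 0.00141. Rbpj, a Notch pathway factor, was higher by 0.55 (SE 0.14, adjusted p = 0.0363), past the threshold in 9 of 14 fits that left out 1 library. Cyld, a deubiquitinase that restrains RANK signalling, did not pass (-0.43, SE 0.12, adjusted p = 0.0558).

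Of 20 fusion genes, 8 were higher and 0 lower (median 0.34). Atp6v0d2, a proton pump subunit needed for fusion in mice, averaged 257 ± 11.6 CPM in KO implants and 21.1 ± 15.6 CPM in WT implants (3.83, SE 0.27, adjusted p = 0.000337). Adam8, a metalloprotease of myeloid cells, averaged 474 ± 53.8 CPM in KO implants and 42.6 ± 28.5 CPM in WT implants (3.68, SE 0.33, adjusted p = 0.000457). The cell surface proteins Sirpa (1.99, SE 0.15) and Cd200r1 (2.24, SE 0.19) had adjusted p of 0.000337 and 0.00036. Of 14 tested genes of acid secretion and bone resorption, 6 were higher and 1 lower (median 0.46). Ctsk, the collagen-degrading protease of osteoclasts, averaged 283 ± 55.0 CPM in KO implants and 62.3 ± 28.9 CPM in WT implants (2.30, SE 0.27, adjusted p = 0.00146). Tcirg1, a proton pump subunit, was higher by 2.35 (SE 0.27, adjusted p = 0.00133) and the chloride transporter gene Clcn7 by 1.11 (SE 0.10, adjusted p = 0.00046). Mmp9, a gelatinase of osteoclasts and neutrophils, averaged 6.20 ± 0.730 CPM in KO implants and 21.9 ± 10.5 CPM in WT implants (-1.64, SE 0.23, adjusted p = 0.00344). Calcr, the calcitonin receptor of mature osteoclasts, was at 0.0859 CPM in MKF2, at 0 in MKM2 and MKF1, at 0.094 to 0.159 CPM in WT implants and at 0 in all fat libraries, too low to be tested.

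With all 16 libraries as labelled, where 0.685% of all genes were higher and 1.04% lower, the counts higher and lower were 2 and 1 for RANK and CSF1 signalling, 1 and 0 for transcription factors, negative regulators and fusion genes alike, and 0 and 0 for resorption. Without MWF1, MKF2, MWM1 or MWM2 the count of higher resorption genes was 3. The count of lower signalling genes was 1 without any 1 of these libraries or MWF2, and Relb did not pass without MKF2 or MWM2. Markers of bone itself were low: the sum of 9 osteoblast and bone genes was 20.8 to 26.6 CPM in KO implants and 19.1 to 26.5 CPM in WT implants. In KO implants Ibsp was at 0 and Bglap, Bglap2, Sp7, Dmp1 and Sost were under 1 CPM in every library.

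**Figure D4:**
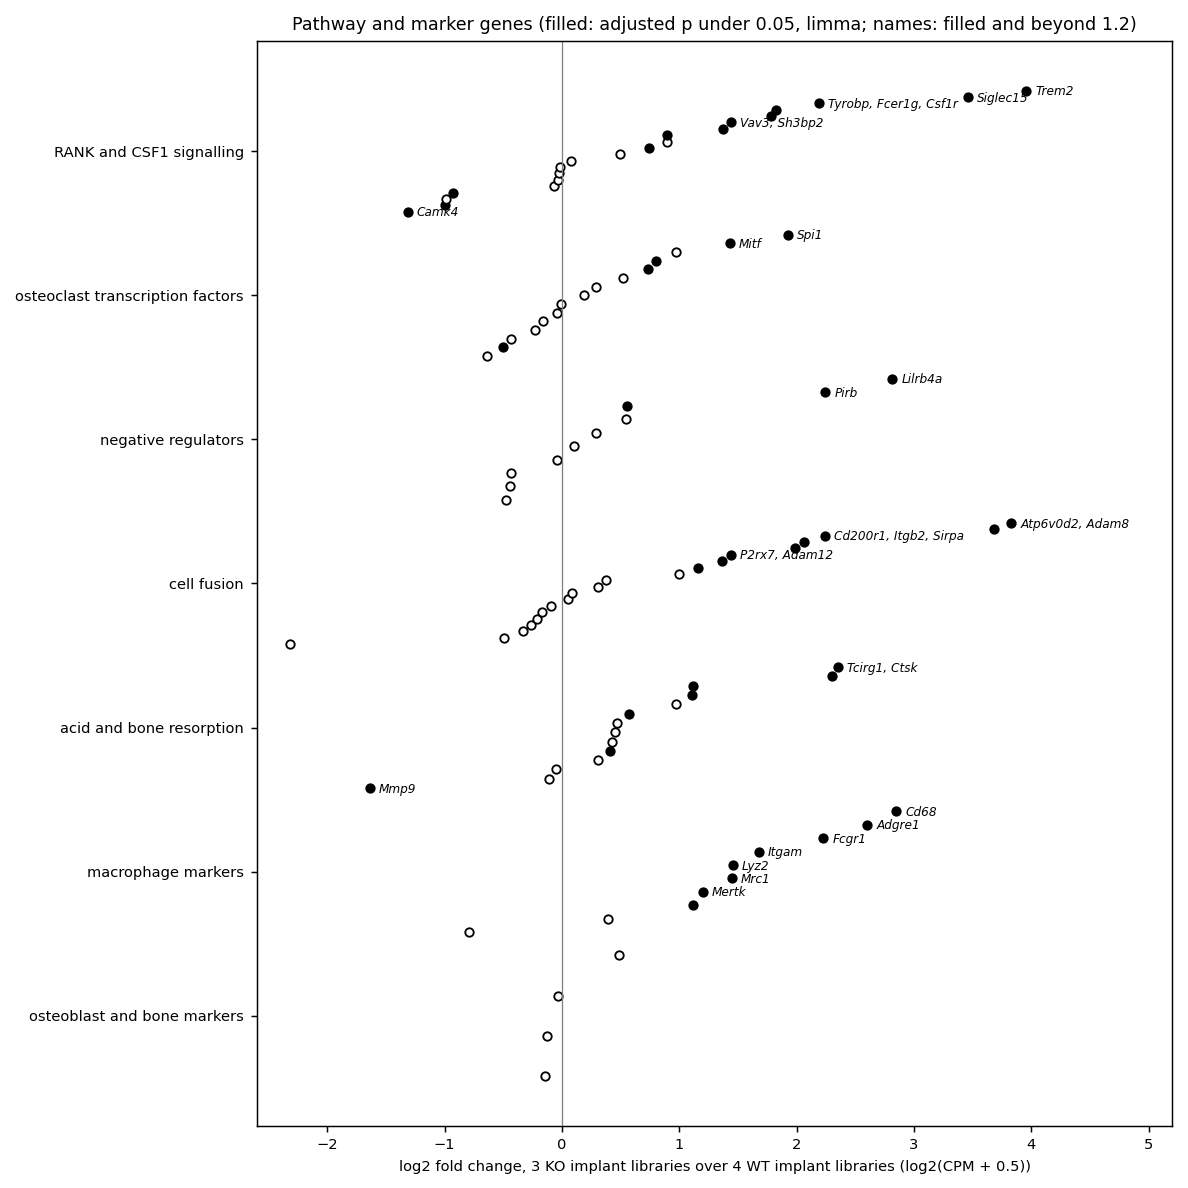
Log2 fold changes of KO over WT implants (limma on log2(CPM + 0.5), 3 and 4 libraries) of the tested genes of 7 lists, spread vertically by rank within each list, with filled points for an adjusted p under 0.05 and names, joined from the upper point down, for filled points beyond 1.2. The highest points are Trem2 (3.96), Atp6v0d2 (3.83), Adam8 (3.68) and Siglec15 (3.46), and the bone markers lie near 0.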

How the data were processed

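The deposited table holds CPM values that the authors made by scaling each library's gene reads to 1000000, for 54658 gene symbols. STAR 2.5.4, featureCounts (Subread 1.6.3), cutadapt 2.7, FastQC 0.11.4 and build mm10 are named in the submitters' processing notes, without order or settings. The strand setting is not given in the sources used here. Every nonzero value was a whole number of reads (tolerance 0.001), so read counts were recovered. Libraries of a group differed by 22.3 to 214.4 chi-square units per degree of freedom, beyond sampling noise; these include MKM1 and EVFN1, and without their groups the values were 22.3 to 103.3.

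Group codes come from the labels. All groups entered 1 limma model (limma 3.58.1, R 4.3.3; trend, robust) of group means on log2(CPM + 0.5), which understates the change of low genes. It used genes reaching 1 CPM in 2 or more libraries, left out MKM1 and EVFN1, and had 6 residual degrees of freedom. Contrasts weighted groups equally, p-values were adjusted by Benjamini-Hochberg over 17871 genes, and the threshold was 0.05. The code was tested on simulated data. Alternatives were all 16 libraries as labelled, other pseudocounts, no filter, median-of-ratios scaling, edgeR 4.0.16 (quasi-likelihood) on the recovered reads, a replicate block and leaving out each library.

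The members, lists and tests were chosen with earlier results of these data known. Named genes are the members, 7 pathway genes, up to 4 genes per pathway list with the smallest p between KO and WT implants, and the 10 genes most like the members. A gene that this rule would name is not reported here. Positions are those of GENCODE M21 on mm10, and promoter sequences are from RefSeq (GRCm38.p6).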

Additional observations from a re-analysis of the deposited data

Results flagged for a closer look

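Among the 24 sets of 4 or more libraries checked, with all libraries grouped as labelled, 7 values lay far from the rest of their set by Dixon's criterion, where chance flags about 1 in 20. Of these, 4 came from the library labelled EVFN1 among the 6 visceral libraries: Tnfrsf11a at 66.4 CPM, Dcstamp at 19.8 CPM, Tm4sf19 at 62.7 CPM and Myh15 at 34.0 CPM, each the highest. A further 2 came from the library labelled MKM1 among the 4 KO implants, Dcstamp at 0.1102 CPM and Ocstamp at 0.165 CPM, each the lowest. The remaining one was Oscar at 0.182 CPM in MWF2, the highest of the WT implants, which rests on few reads.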

How the results depend on the processing

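Over 28 results of the 7 filtered genes in the 4 comparisons tested for them, 516 of 588 values from alternatives kept their direction and side of the threshold, 50 no longer passed, 5 newly passed and 17 changed sign. The counts of genes called over the whole table moved by over 1.5 times with all 16 libraries as labelled: 309 against 1924 between KO and WT implants, 1735 against 4011 between WT implants and visceral fat, 444 against 1858 between WT implants and subcutaneous fat, and 58 against 214 between the depots. In edgeR, 1182 genes were called between WT implants and subcutaneous fat and 1596 against 2460 between MWM and MWF. For the KO difference, male minus female, 98 genes were called, against 217 with all 16 libraries, 0 with a pseudocount of 0.1, 284 with one of 2, 282 with no filter, 56 with median-of-ratios scaling and 0 in edgeR.

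Leaving out 1 library gave 825 to 2350 genes between KO and WT implants, 1708 to 4256 between WT implants and visceral fat, 293 to 2319 between WT implants and subcutaneous fat, 48 to 419 between the depots, 520 to 2477 between MWM and MWF and 0 to 350 for the KO difference, male minus female, which could not be fitted without MKM2. Counts moved by over 1.5 times without MWF1 (1187), MKF2 (839), MWM1 (1006) or MWM2 (825) between KO and WT implants, MWM1 (1708) or MWM2 (2105) against visceral fat, and ESM1 (293), ESM2 (962), MWF2 (1174), MWM1 (841) or MWM2 (1238) against subcutaneous fat. Between the depots they did so without ESM1 (117), ESM2 (48), MWM1 (140), MWM2 (141) or EVM2 (419), between MWM and MWF without any 1 of its 4 libraries (520 to 1052), and for the KO difference without any library except EVFN2.

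Changes of sign were these. With all 16 libraries, WT implants minus visceral fat was -0.49 for Tnfrsf11a and -0.41 for Tm4sf19, and visceral minus subcutaneous fat was 0.014 for Nfatc1 and 0.22 for Ocstamp. With median-of-ratios scaling Acp5 was -0.026 between WT implants and visceral fat. Between the depots Tm4sf19 was -0.20 with a pseudocount of 0.1 and -0.77 in edgeR, and Dcstamp was -0.046 in edgeR. With 1 library left out, WT implants minus visceral fat ranged from -0.35 to 0.25 for Tnfrsf11a and from -0.069 to 0.18 for Acp5, and the depot difference of Nfatc1 from -0.19 to 0.16. The causes were not tested, except that fits of fewer libraries estimate the spread from fewer.

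Deviations of same-numbered libraries correlated at -0.44 to 0.34 over 15 pairs of groups without MKM and EVFN, 7 of them over 0.1. With 2 libraries per group this check cannot exclude that replicate numbers pair the libraries, and the main model did not pair them. With the replicate number as a block, 1684, 3736, 1698, 200, 2082 and 124 genes were called in the 6 comparisons in the order given above, and Nfatc1 between WT implants and subcutaneous fat had an adjusted p of 0.0686. Genes at a few reads, Oscar above all, are limited by depth.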
